A study of Mus musculus with 14 samples.

Results

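The mitochondrial respiratory chain subunits were examined in mouse spleen cells enriched for follicular dendritic cells (FDC) and in spleen cells depleted of them. Members were the probe sets of 3 oligonucleotide array sets, A, B and C, whose single gene symbol belonged to the Nduf, Sdha to Sdhd, Uqcr, Cox4 to Cox8, Atp5 or Cycs families. They came to 154 probe sets of 36899 in all, 101 on set A, 16 on set B and 37 on set C, and they stood for 85 genes of 15965 named on the arrays. Of these, 110 probe sets were bright enough to be tested, 69, 10 and 31 on the 3 sets, and 76 genes had at least 1 tested probe set. The other 9 genes (Cox7a1, Cox7b2, Cox8a, Cycs, Ndufaf1, Ndufaf2, Ndufaf5, Ndufc2 and Sdhaf3) did not pass the filter on dim probe sets. Probe sets that named several genes, of which 16 in all (10, 3 and 3) included a gene of these families, were not used.

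The respiratory chain sits in the inner mitochondrial membrane. Complex I takes electrons from NADH and complex II takes them from succinate, both pass them to ubiquinone, complex III hands them on to cytochrome c, and complex IV gives them to oxygen. Complexes I, III and IV pump protons, and complex V, the ATP synthase, lets the protons flow back to make ATP. All subunits described here are encoded in the nucleus, and a small core of further subunits is encoded by mitochondrial DNA. FDC are stromal cells of the B cell follicle that hold antigen on their surface, whereas the depleted cells are the remaining splenocytes.

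Each array carried total RNA of 1 sample. Set A had 2 depleted and 3 enriched arrays, set B had 2 and 2 (enriched 2 and 3), and set C had 2 and 3. The sources used here give no strain, age, number of animals or way of isolating the cells. They do not say whether arrays of a group came from separate mice either, so a p-value weighs a difference against array-to-array spread that may be purely technical. With 2 against 3 arrays an exact permutation test could not go below p = 0.1 and with 2 against 2 not below p = 0.333, so single genes were tested with limma across all tested probe sets of a set. A call means an adjusted p under 0.05, and differences are enriched minus depleted on the log2(intensity + pseudocount) scale, which understates the change of dim probe sets. The array of enriched sample 2 on set A lacked 893 values, 7 of them in members.

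The samples differed strongly in cell makeup. On set A the intensities of 5 FDC markers summed to between 2140 and 2407 in depleted cells and between 17192 and 20606 in enriched cells, and 5 of 5 rose. Markers of endothelium (7 of 7), of fibroblasts and mural cells (6 of 7), of macrophages (6 of 6) and of platelets and megakaryocytes (3 of 3) rose too, and 1 of 3 erythroid markers did. B cell markers (5 of 5), T cell markers (5 of 5), NK cell markers (2 of 2) and neutrophil markers (3 of 4) fell. The T cell markers of set A summed to between 4749 and 5128 in depleted cells and between 592 and 635 in enriched cells, where Cd3g (44.1 ± 1.92, SD, n = 3) and Cd3d (53.5 ± 8.43, SD, n = 3) lay below the pseudocount of 88.5. The part of these shifts in the results on the respiratory chain was not tested, and in such bulk samples fewer cells of a type and less RNA per cell cannot be told apart.

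Most respiratory chain probe sets differed little between the groups. On set A, 18 of 69 members (26.1%) rose and 3 (4.35%) fell, beside 23.1% higher and 17.9% lower among all 7895 probe sets tested. On set B, 2 of 10 rose and 0 fell, beside 19.4% higher and 17% lower among all. On set C, 1 of 31 rose and 3 fell, beside 9.5% higher and 8.73% lower among all. The share of members that rose was close to that of all probe sets on sets A and B and below it on set C. Without either depleted array, fewer members passed as higher on set A, and fewer of all probe sets did too. The median log2 difference of the members was then 0.11 without depleted array 1 and 0.08 without depleted array 2, beside 0.02 and 0.03 for all. The 3 members that fell on set A became 0 without enriched array 3 and 5 without enriched array 1. Among all probe sets 1416 fell, which became 1127 and 1651. Without either depleted array fewer members, and fewer of all probe sets, fell. On set B, without depleted array 1, fewer members rose, as did fewer of all probe sets. On set C 2 members rose without enriched array 1, beside 712 of all probe sets. Fewer members, and fewer of all probe sets, fell there without any 1 of the other 4 arrays.

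The median log2 difference of the members was 0.07 on set A, 0.04 on set B and -0.01 on set C, beside 0.02, 0.00 and 0.02 for all tested probe sets. On set A the members ranged from -0.40 to 0.64, whereas all probe sets ranged from -3.20 to 4.22. There 95.7% of the members lay within 1.5-fold of no difference, beside 81.2% of all probe sets, as the plot of their distribution shows. The enriched arrays of set A were also brighter as a whole, with trimmed mean intensities of 470 to 481 against 445 and 447. Once all arrays of set A were brought to equal distributions, the median of the members became -0.004 and that of all probe sets -0.07. Then 13 members rose and 11 fell, beside 1447 that rose and 2042 that fell among all probe sets. Scaling to a common median gave 11 members that rose and 6 that fell, beside 1461 and 1966 among all. The median was -0.003 for the members and -0.06 for all. Among all calls on set A, 56.3% were higher in the enriched cells on the deposited scale, 41.5% after quantile normalization and 42.6% after median scaling.

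**Figure D1:**
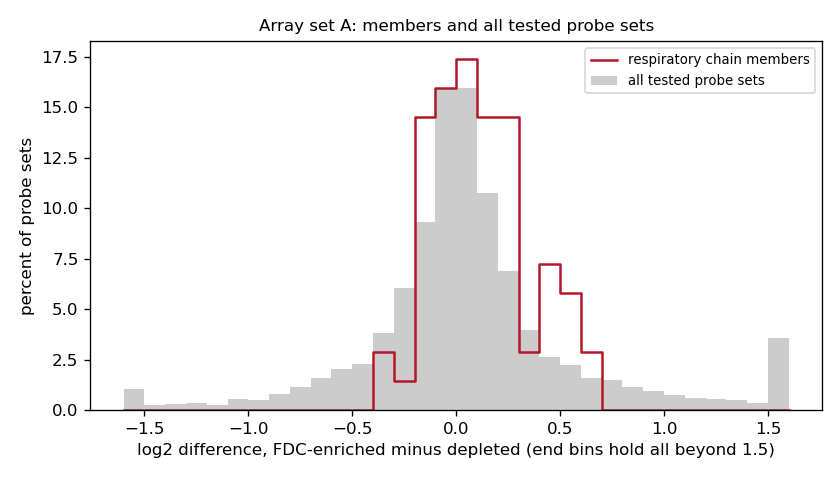
Percent of probe sets (y axis) in each bin of log2 difference, enriched minus depleted (x axis), on array set A. The red line is the 69 respiratory chain members and the grey bars are all 7895 tested probe sets. The members keep to the middle, between -0.40 and 0.64, where the wider tails of the grey bars hold none of them.

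Counted by gene, with the brightest tested probe set standing for each, 17 of 76 genes (22.4%) were higher in the enriched cells, 4 (5.26%) were lower and 55 did not pass. For a gene tested on several array sets, brightest means the highest rank in level within its own set, not the highest intensity. Among all 12267 named genes represented in the same way, 19.2% were higher and 14.4% lower, so the share of rises was near the background. These shares are the background for the counts by complex, by subunit group and by list that follow, and the smaller groups hold too few genes to be read against them. Complex I had 7 rises and 1 fall among 31 genes (median log2 difference 0.09), complex II 1 rise among 4 (0.03), complex III 2 rises among 7 (0.10), complex IV 4 rises among 13 (0.14), and complex V 2 rises and 1 fall among 14 (0.02). Assembly factors that match the families had 1 rise and 2 falls among 7 (-0.03). The groups of arrays did not overlap for any of the 21 genes that passed, nor for 24 of the 55 other genes, 14 higher and 10 lower in the enriched cells. In all, 31 of the 76 genes (40.8%) were higher without overlap and 14 (18.4%) lower, beside 34% and 27.3% of all 12267 genes. For all 55 genes that did not pass, the 95% interval of the difference lay within 1.5-fold either way. No difference between complexes was tested.

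**Figure D2:**
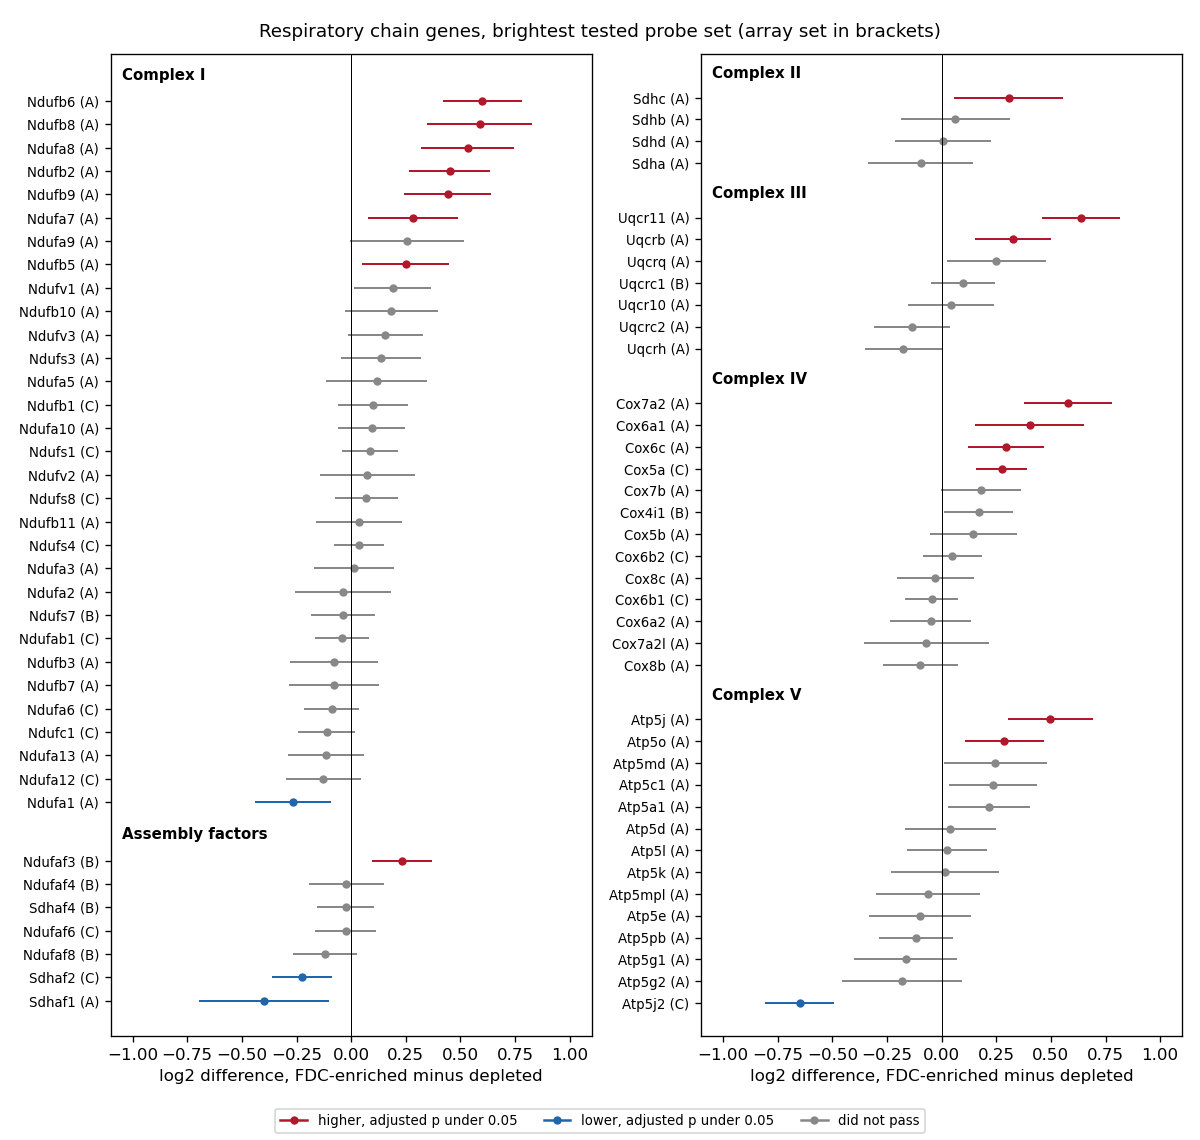
Log2 difference in intensity, enriched minus depleted (x axis), of 76 respiratory chain genes grouped by complex, with the array set of the probe set in brackets. Points are limma estimates and lines are 95% intervals. The 17 red genes (adjusted p under 0.05, higher) include Uqcr11 at 0.64 and Ndufb6 at 0.60, the 4 blue genes (lower) include Atp5j2 at -0.65, and the 55 grey genes did not pass.

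The promoters of the 6 genes that passed and held a match to the motif of a known regulator of respiratory genes are shown, so that the letters stand beside the values that follow. The 250 bases upstream of the start were searched, on both strands, in the RefSeq table of build GRCm38.p6, which held 71 of the 85 genes. The motifs were GCGCA, any base, then GCGC for nuclear respiratory factor NRF1, CCGGAAG for ETS factors such as GABPA (NRF2), and AAGATGGC for YY1. NRF1's motif was in 12.7% of the 71 members (9) and in 4.23% of all 27025 genes of the table, the ETS motif in 21.1% (15) and 7.83%, and the YY1 motif in 1.41% (1) and 1.83%. Of the 13 genes that rose and had an entry, 2 held the NRF1 motif and 4 the ETS motif, beside 7 and 8 of the 45 that did not pass. No matches overlapped each other. A match describes the letters of these windows and is not a measured binding site. Capitals mark the matches in the sequences, written 5′ to 3′ towards the gene.
Ndufb6 (chr4:40279422-40279671, minus strand): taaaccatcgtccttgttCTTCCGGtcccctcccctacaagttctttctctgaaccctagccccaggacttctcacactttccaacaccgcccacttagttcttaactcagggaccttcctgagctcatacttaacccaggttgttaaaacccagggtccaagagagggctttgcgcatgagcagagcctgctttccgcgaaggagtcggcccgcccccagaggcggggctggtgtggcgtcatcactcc
Ndufa8 (chr2:36049339-36049588, minus strand): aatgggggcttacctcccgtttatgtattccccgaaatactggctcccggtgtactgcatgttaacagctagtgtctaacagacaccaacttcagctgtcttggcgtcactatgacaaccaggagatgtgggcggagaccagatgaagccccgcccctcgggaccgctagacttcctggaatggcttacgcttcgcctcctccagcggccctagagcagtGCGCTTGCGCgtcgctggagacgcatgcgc
Uqcr11 (chr10:80406822-80407071, minus strand): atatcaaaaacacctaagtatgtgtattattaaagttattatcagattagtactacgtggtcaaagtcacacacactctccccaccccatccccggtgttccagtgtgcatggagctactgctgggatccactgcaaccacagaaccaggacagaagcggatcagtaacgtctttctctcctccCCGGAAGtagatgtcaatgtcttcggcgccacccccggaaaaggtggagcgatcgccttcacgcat
Cox6a1 (chr5:115348959-115349208, minus strand): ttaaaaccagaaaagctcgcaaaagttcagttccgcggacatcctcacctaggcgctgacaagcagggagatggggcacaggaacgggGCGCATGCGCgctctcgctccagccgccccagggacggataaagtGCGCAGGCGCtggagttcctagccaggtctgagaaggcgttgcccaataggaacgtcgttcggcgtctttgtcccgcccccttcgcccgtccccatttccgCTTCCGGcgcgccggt
Atp5j (chr16:84834977-84835226, minus strand): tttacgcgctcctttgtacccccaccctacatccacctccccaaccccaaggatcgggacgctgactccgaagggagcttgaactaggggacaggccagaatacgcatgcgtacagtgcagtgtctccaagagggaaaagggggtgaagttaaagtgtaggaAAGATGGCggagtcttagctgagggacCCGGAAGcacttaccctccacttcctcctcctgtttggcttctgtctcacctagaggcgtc
Sdhaf2 (chr19:10525210-10525459, minus strand): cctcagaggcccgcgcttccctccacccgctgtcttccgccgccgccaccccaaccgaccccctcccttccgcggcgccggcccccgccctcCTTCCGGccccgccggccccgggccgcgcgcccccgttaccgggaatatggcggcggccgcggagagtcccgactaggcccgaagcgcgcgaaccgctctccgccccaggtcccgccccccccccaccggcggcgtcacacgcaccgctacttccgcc

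These windows differ in what they hold. Ndufb6 has 1 ETS match (as CTTCCGG on the written strand), 232 bases before the start, and Uqcr11 has 1 ETS match at 66 bases. Ndufa8 has 1 NRF1 match at 30 bases, which is GCGCTTGCGC. Cox6a1 has 2 NRF1 matches, at 162 and 117 bases, and 1 ETS match at 16 bases. Atp5j has 1 ETS match at 61 bases and the only YY1 match among the members, at 88 bases, and its entry is 1 of 2 starts in the table. Sdhaf2, which fell, has 1 ETS match at 158 bases. The probe sets of these regulators did not differ between the groups past the threshold: the log2 difference was 0.05 for Nrf1, 0.09 for Gabpa and -0.03 for Yy1.

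In complex I, 6 of the 7 genes that rose encode subunits of the membrane arm, the part that spans the inner membrane and pumps protons. Of 16 tested membrane arm genes, 6 rose and 1 fell, leaving 9 that did not pass, whereas of 14 in the matrix arm, which holds the NADH and iron-sulfur centres, 1 rose and 13 did not pass. The difference between the arms was not tested, and of all genes 19.2% rose and 14.4% fell. Ndufb6, an accessory subunit of the membrane arm (set A), had intensities of 524 and 481 on the depleted arrays and 767, 834 and 821 on the enriched arrays. Every enriched array lay above both depleted arrays, and Ndufb6 rose 1.52-fold (log2 difference 0.60, SE 0.08, 95% interval 0.42 to 0.78, limma adjusted p = 0.000356). Ndufb8, another accessory subunit of the membrane arm (set A), measured 831 and 740.5 on the depleted arrays and 1354, 1239.6 and 1089.6 on the enriched arrays. Its enriched arrays spread more widely than those of Ndufb6 but stayed above the depleted ones, and the rise was 1.5-fold (log2 difference 0.59, SE 0.10, 95% interval 0.35 to 0.82, limma adjusted p = 0.00211).

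Ndufa8, a subunit on the intermembrane space face of complex I (set A), had 740.2 and 644 on the depleted arrays and 1122, 1005 and 994 on the enriched arrays. The groups were again apart, with a rise of 1.45-fold (log2 difference 0.53, SE 0.09, 95% interval 0.33 to 0.74, limma adjusted p = 0.00176). Ndufb2, an accessory subunit of the membrane arm (set A), gave 1298 and 1178 on the depleted arrays and 1765, 1724 and 1679 on the enriched arrays. It rose 1.37-fold (log2 difference 0.45, SE 0.08, 95% interval 0.27 to 0.63, limma adjusted p = 0.00208), and a dimmer probe set of Ndufb2 on set A rose as well (log2 difference 0.44, limma adjusted p = 0.00165). Both probe sets are annotated to the same source sequence. Ndufb9, an accessory subunit of the LYR family of mitochondrial proteins (set A), gave 449 and 440.3 on the depleted arrays and 579, 692 and 639 on the enriched arrays. The enriched arrays of Ndufb9 were the more variable group and all stayed above the depleted ones (log2 difference 0.44, SE 0.08, 95% interval 0.25 to 0.63, limma adjusted p = 0.00335). These 5 genes stayed past the threshold under every alternative scaling, filter and left-out array.

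Another 2 genes of complex I rose by less. Ndufa7, the single matrix arm gene that rose, had 1637 and 1420.1 on the depleted arrays and 1868, 1946 and 1810.3 on the enriched arrays (log2 difference 0.28, limma adjusted p = 0.0317), and Ndufb5 had 1350.0 and 1287 on the depleted arrays and 1545, 1712 and 1503 on the enriched arrays (log2 difference 0.25, limma adjusted p = 0.0452). Both had groups that did not overlap, but neither call held on an equalised scale, where the adjusted p was 0.0765 and 0.113 after quantile normalization and 0.149 and 0.205 after median scaling. The call of Ndufa7 was also lost without depleted array 2 (0.311), enriched array 2 (0.0631) or enriched array 3 (0.0587). That of Ndufb5 was lost without depleted array 1 (0.149), depleted array 2 (0.266), enriched array 2 (0.085) or enriched array 3 (0.0606).

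Ndufa1, a small membrane subunit encoded on the X chromosome, was the complex I gene that fell. Its intensity was 324 and 294 on the depleted arrays and 241, 256 and 228 on the enriched arrays, so that all enriched arrays were below both depleted arrays (log2 difference -0.27, SE 0.07, 95% interval -0.44 to -0.10, limma adjusted p = 0.0199). The adjusted p of Ndufa1 was 0.191 without depleted array 1, 0.0589 without depleted array 2 and 0.0717 without enriched array 3. The NADH-binding subunit Ndufv1 (log2 difference 0.19, 95% interval 0.02 to 0.36, limma adjusted p = 0.0738) and the iron-sulfur subunit Ndufs1 (log2 difference 0.09, 95% interval -0.04 to 0.21, limma adjusted p = 0.319, set C) did not pass. Neither did Ndufab1, the mitochondrial acyl carrier protein that is also a subunit (log2 difference -0.04, 95% interval -0.16 to 0.08, limma adjusted p = 0.658). These 3 genes were picked for their roles or after their values were seen. The other tested probe sets of Ndufs1 did not pass either, with log2 differences of -0.13 on set A and 0.18 on set C. On set A all enriched arrays of Ndufs1 lay below the depleted ones, and for both probe sets on set C they all lay above. Ndufa13 did not pass on the deposited scale (log2 difference -0.12) and passed as lower after quantile normalization.

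**Figure D3:**
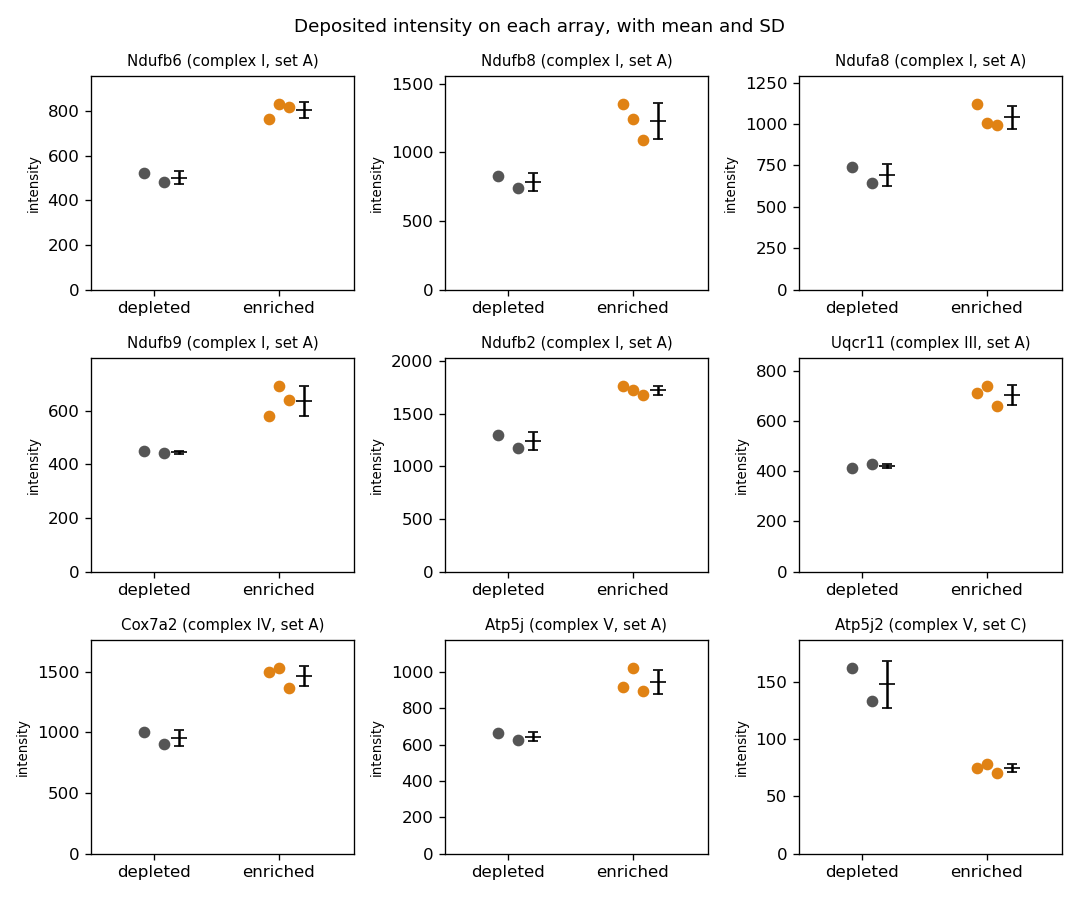
Deposited intensity (y axis, linear, from 0) on each depleted and enriched array for the 9 genes whose call held under every alternative. Dots are arrays and bars are the mean with the SD. In 8 panels all enriched dots lie above the depleted ones, from Ndufb6 at 767 to 834 against 481 and 524, and in the Atp5j2 panel they lie below.

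Complex II, succinate dehydrogenase, also works in the citric acid cycle, and its 4 genes were all tested. Sdha, which carries the flavin and binds succinate, had 207 and 208 on the depleted arrays and 158, 225 and 187 on the enriched arrays (log2 difference -0.10, limma adjusted p = 0.505). Sdhb, the iron-sulfur subunit, had 1249.9 and 1163 on the depleted arrays and 1102, 1403 and 1303 on the enriched arrays (log2 difference 0.06, limma adjusted p = 0.692). In both genes the enriched arrays lay on either side of the depleted ones. Sdhc, a membrane anchor that binds ubiquinone, had 737 and 810.4 on the depleted arrays and 849.9, 1083 and 1013 on the enriched arrays, with no overlap (log2 difference 0.31, SE 0.11, 95% interval 0.06 to 0.55, limma adjusted p = 0.0496). Its call was at the threshold and was lost under 11 of the alternatives, with adjusted p of 0.0502 to 0.282, among them the leaving out of depleted array 1 (0.282), depleted array 2 (0.111), enriched array 2 (0.108) or enriched array 3 (0.131). Sdhd, the other anchor, had 1629 and 1499 on the depleted arrays and 1418, 1656 and 1640.0 on the enriched arrays (log2 difference 0.00, limma adjusted p = 0.977), and its groups overlapped.

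Both assembly factors of complex II that passed were lower in the enriched cells. Sdhaf1, which helps to deliver iron-sulfur clusters to Sdhb, had 870.0 and 635 on the depleted arrays and 487, 583 and 565 on the enriched arrays. All enriched arrays lay below the depleted ones, which themselves differed widely (log2 difference -0.40, SE 0.13, 95% interval -0.69 to -0.11, limma adjusted p = 0.0362). Without depleted array 1, the brightest, the log2 difference of Sdhaf1 was -0.20 and its adjusted p 0.323, and the call was lost without enriched array 1 (0.062) or enriched array 3 (0.0664) too. The other tested probe set of Sdhaf1, on set C rather than set A, did not pass and its groups overlapped (log2 difference -0.10, limma adjusted p = 0.291). Sdhaf2, which is needed to attach the flavin to Sdha, had 233 and 202 on the depleted arrays and 175, 179 and 180.0 on the enriched arrays on set C (log2 difference -0.23, SE 0.06, 95% interval -0.36 to -0.09, limma adjusted p = 0.0296), and the groups did not overlap. The other 2 tested probe sets of Sdhaf2 fell as well, with a log2 difference of -0.37 on set A (limma adjusted p = 0.0216) and -0.39 on set C (limma adjusted p = 0.0157). The dimmer probe set on set C passed the filter through the depleted arrays alone. The first probe set was not past the threshold without depleted array 1 (0.128) or without any enriched array (0.0559, 0.0694 and 0.0862), the one on set A without depleted array 2 (0.211) or enriched array 3 (0.0515), and the last one without depleted array 2 (0.0856). Sdhaf4 did not pass (log2 difference -0.03, 95% interval -0.15 to 0.10, limma adjusted p = 0.761).

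Assembly factors of complex I showed 1 rise among 4 tested. Ndufaf3 had 287 and 295 on the depleted arrays and 349 and 365 on the enriched arrays on set B (log2 difference 0.23, SE 0.06, 95% interval 0.10 to 0.37, limma adjusted p = 0.0111). The groups did not overlap, and the call was lost without depleted array 1 (0.0759). Its probe set on set C had a log2 difference of -0.02 and did not pass. Ndufaf4 (-0.02), Ndufaf6 (-0.03) and Ndufaf8 (-0.12) had small log2 differences that did not pass. Ndufaf8 had 926 and 935 on the depleted arrays and 846 and 853 on the enriched arrays, with no overlap of the groups.

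In complex III both genes that rose were small subunits without a redox centre. Uqcr11, the smallest subunit (set A), had 414 and 428 on the depleted arrays and 711, 741 and 661 on the enriched arrays. This was the largest rise among the 76 genes, 1.55-fold, with the groups far apart (log2 difference 0.64, SE 0.07, 95% interval 0.46 to 0.81, limma adjusted p = 0.000229). Uqcrb, which takes part in ubiquinone binding, had 629 and 593 on the depleted arrays and 760.2, 822 and 784 on the enriched arrays and did not overlap either (log2 difference 0.33, SE 0.07, 95% interval 0.16 to 0.50, limma adjusted p = 0.0081). Without depleted array 2 the adjusted p of Uqcrb was 0.103. Uqcrq, another small subunit, did not pass although its groups did not overlap (log2 difference 0.25, 95% interval 0.03 to 0.47, limma adjusted p = 0.0717).

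The core proteins of complex III gave no such rise by the probe sets that stood for them. Uqcrc1 was represented on set B, where its probe set ranked at percentile 91.5 of level, against 91.2 for its probe set on set A. Uqcrc1 had 962 and 941 on the depleted arrays and 1022 and 1026 on the enriched arrays on set B (log2 difference 0.10, 95% interval -0.04 to 0.24, limma adjusted p = 0.262), and a probe set on set A, named after its values were seen, rose, with 1463 and 1388 on the depleted arrays and 1696, 1855 and 1685 on the enriched arrays (log2 difference 0.28, limma adjusted p = 0.0254). That call on set A was lost after quantile normalization (0.0557) and median scaling (0.132), and without depleted array 1 (0.102) or 2 (0.202). Uqcrc2 (log2 difference -0.14, 95% interval -0.31 to 0.03, limma adjusted p = 0.183) and the hinge protein Uqcrh (log2 difference -0.18, 95% interval -0.35 to -0.00448, limma adjusted p = 0.0959) did not pass on the deposited scale. Both passed as lower under either other scaling, and their enriched arrays were all below the depleted ones. The other tested probe sets of Uqcrh, on set C, had log2 differences of 0.12 and -0.05 and did not pass. In the one at 0.12 all enriched arrays lay above the depleted ones. Cyc1, the haem-bearing subunit of complex III that the families above leave out, did not pass (log2 difference 0.04). Cycs itself, the carrier between complexes III and IV, was too dim to be tested, at 57.0 and 58.1 on the depleted and 66.6, 80.7 and 75.1 on the enriched arrays.

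In complex IV, cytochrome c oxidase, 4 of 8 tested genes for widely expressed subunits rose and 0 of 4 for tissue-restricted isoforms did, a difference that was not tested and that stands beside 19.2% of all genes. Cox7a2, the form of subunit VIIa found in most tissues (set A), had 1002 and 906 on the depleted arrays and 1496, 1534 and 1369 on the enriched arrays. It rose 1.49-fold, with every enriched array above the depleted ones (log2 difference 0.58, SE 0.09, 95% interval 0.38 to 0.77, limma adjusted p = 0.000837). Cox6a1, the widely expressed form of subunit VIa, had 2267 and 2353 on the depleted arrays and 3120.2, 3447 and 2718 on the enriched arrays on set A (log2 difference 0.40, SE 0.11, 95% interval 0.16 to 0.65, limma adjusted p = 0.0159). A separate probe set of Cox6a1 on set B also rose, with 713 and 785 on the depleted arrays and 1184 and 884 on the enriched arrays (log2 difference 0.41, limma adjusted p = 0.0169). The set A call was lost after median scaling (0.0504) and without depleted array 1 (0.108) or 2 (0.0726), and the set B call without depleted array 1 (0.106).

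The remaining rises in complex IV were smaller. Cox6c, a small accessory subunit, had 2665 and 2630.4 on the depleted arrays and 3148, 3301 and 3354 on the enriched arrays (log2 difference 0.29, 95% interval 0.12 to 0.47, limma adjusted p = 0.0134). Cox5a, which sits on the matrix face, had 1016 and 992 on the depleted arrays and 1213, 1225 and 1241 on the enriched arrays on set C (log2 difference 0.28, 95% interval 0.16 to 0.39, limma adjusted p = 0.00508). Neither gene had overlapping groups, and Cox5a was the single member that rose on set C. The call of Cox6c was lost after median scaling (0.0874) and without depleted array 1 (0.0942) or 2 (0.114). Cox4i1, the common form of subunit IV, had 696 and 638 on the depleted arrays and 745 and 774 on the enriched arrays on set B and did not pass (log2 difference 0.17, 95% interval 0.02 to 0.32, limma adjusted p = 0.0811).

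Isoforms that belong mainly to heart and skeletal muscle or to testis gave no call. Of the 4 tested, Cox6b2, Cox6a2 and Cox8b were dim, at percentiles 3.70, 22.8 and 23.2 of level within their sets. Cox8c was brighter, at percentile 79.8 (log2 difference -0.03, limma adjusted p = 0.803). The part of brightness in the lack of calls was not tested. Cox6a2, the muscle form of subunit VIa, had 267 and 295 on the depleted arrays and 244, 282 and 279 on the enriched arrays (log2 difference -0.05, 95% interval -0.23 to 0.13, limma adjusted p = 0.66), and Cox8b, a muscle form of subunit VIII, had 284 and 299 on the depleted arrays and 278, 247 and 275 on the enriched arrays (log2 difference -0.10, 95% interval -0.26 to 0.07, limma adjusted p = 0.328). The groups of Cox6a2 overlapped, and those of Cox8b did not. Cox6b1, the common form of subunit VIb (log2 difference -0.05, 95% interval -0.16 to 0.07, limma adjusted p = 0.61), and Cox6b2, its testis form (log2 difference 0.05, 95% interval -0.08 to 0.18, limma adjusted p = 0.62), did not pass. Cox7a1, the muscle form of subunit VIIa, and Cox8a, the common form of subunit VIII, were below the brightness filter. Cox4i2, Ndufa4, Ndufa4l2 and Atp5g3 had no probe set with a single symbol and were not analysed here. Cox7a2l, which helps to join complexes III and IV into larger assemblies, did not pass (log2 difference -0.07, 95% interval -0.35 to 0.21, limma adjusted p = 0.701).

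In complex V the genes that rose were both part of the peripheral stalk, which holds the catalytic head still while the rotor turns. Atp5j, coupling factor 6 (set A), had 663 and 626 on the depleted arrays and 919.8, 1023 and 897 on the enriched arrays. It rose 1.41-fold and the groups were well apart (log2 difference 0.50, SE 0.08, 95% interval 0.31 to 0.69, limma adjusted p = 0.00159). Atp5o, the stalk subunit that confers oligomycin sensitivity, had 1150.2 and 1094 on the depleted arrays and 1412, 1425 and 1330.3 on the enriched arrays, also without overlap (log2 difference 0.29, SE 0.08, 95% interval 0.11 to 0.46, limma adjusted p = 0.0166). The call of Atp5o was lost after quantile normalization (0.0829) and median scaling (0.0875), and without depleted array 1 (0.0821) or 2 (0.16). The third stalk gene, Atp5pb, did not pass on the deposited scale (log2 difference -0.12, 95% interval -0.28 to 0.05, limma adjusted p = 0.234) and passed as lower after quantile normalization.

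Atp5j2, a small membrane subunit of the ATP synthase (set C), had the lowest difference of the 76 genes and passed as lower. It had 162 and 133 on the depleted arrays and 75.05, 78.4 and 70.6 on the enriched arrays, so the enriched arrays lay not far above the pseudocount of that set, 53.1, and below both depleted arrays. The fall was 1.57-fold on the scale with the pseudocount (log2 difference -0.65, SE 0.07, 95% interval -0.80 to -0.50, limma adjusted p = 0.000228). This probe set was among the dimmest that were tested, at the 4.66th percentile of level among the tested probe sets of set C. It passed the filter on dim probe sets through the depleted arrays alone, since no enriched array reached the filter level of that set (96.6 to 98.7), so it could be tested only because it was higher there. With no filter at all the limma adjusted p of Atp5j2 was 0.000216.

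The 4 tested genes of the catalytic head of the ATP synthase (Atp5a1, Atp5c1, Atp5d and Atp5e) gave no call, and Atp5b, the beta subunit that carries the catalytic sites, was not analysed here. Atp5a1, the alpha subunit (log2 difference 0.22, 95% interval 0.03 to 0.40, limma adjusted p = 0.0614), and Atp5c1, the gamma subunit that turns within the head (log2 difference 0.24, 95% interval 0.04 to 0.43, limma adjusted p = 0.0572), were higher on every enriched array than on both depleted arrays without passing. Atp5d, the delta subunit, was fitted on 4 arrays since enriched 2 had no value, and gave 1648 and 1576 on the depleted and 1695 and 1625 on the enriched arrays (log2 difference 0.04, limma adjusted p = 0.761). The genes Atp5g1 and Atp5g2 encode the same mature subunit c of the rotor ring. Atp5g1 had 681 and 684 on the depleted arrays and 694, 551 and 562 on the enriched arrays (log2 difference -0.16, 95% interval -0.39 to 0.07, limma adjusted p = 0.235), and Atp5g2 had 863 and 899.7 on the depleted arrays and 904, 756 and 658 on the enriched arrays (log2 difference -0.18, 95% interval -0.45 to 0.09, limma adjusted p = 0.265). In both, enriched array 1 lay just above both depleted arrays and the other 2 enriched arrays were dimmer. Without enriched array 1 both passed as lower, with a log2 difference of -0.26 and adjusted p = 0.0108 by limma for Atp5g1, and -0.29 and 0.0195 for Atp5g2. Among all probe sets of set A 1651 then fell, beside 1416 with all arrays. The other tested probe set of Atp5g2, on set C, had a log2 difference of 0.07 and did not pass.

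Probe sets of the same gene often disagreed in size. Of 26 genes with several tested probe sets, 11 had differences of 1 sign and 10 had at least 1 call. All probe sets were called in 2 (Cox6a1 and Sdhaf2), and 0 had calls in opposite directions. The dimmer Sdhaf2 probe set on set C was tested only through its depleted arrays. There were 17 genes with a probe set that rose on set A, and 7 of them had a tested probe set on set B or C. Of those 7, Cox6a1 rose there too and the other 6 did not. Among all tested probe sets 19.4% rose on set B and 9.5% on set C. The same count was not made for all genes that rose on set A. The 1 of 7 therefore cannot be read as a trait of the respiratory chain. Ndufb6 had a log2 difference of -0.01 on set C, at 111 and 102 on the depleted arrays and 111, 97.5 and 107 on the enriched arrays. Ndufb8 had 0.01 and -0.01 with its probe sets on set C, and Cox7a2 had -0.09. These 3 genes were among the clearest rises on set A.

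Ndufc1, a membrane arm subunit of complex I that was picked after its values were seen, showed a gap of the same kind. It was represented by its probe set on set C, at percentile 82.4 of level within that set, against 48.6 on set A. On set A it had 364 and 355 on the depleted arrays and 533, 575 and 531 on the enriched arrays and rose (log2 difference 0.50, limma adjusted p = 0.000597). On set C it had 468 and 468 on the depleted arrays and 444, 434 and 409 on the enriched arrays, with the enriched arrays the lower ones (log2 difference -0.11, limma adjusted p = 0.203). Ndufb2 had a log2 difference of 0.18 on set C (limma adjusted p = 0.0641). The 3 array sets hold different probe sets, and levels were not compared between them. Probe sets whose names carry the _f_ suffix, which Affymetrix uses for those that can match a family of similar sequences, stood for 12 of the 76 genes. Of these, 4 rose (Ndufb5, Uqcrb, Cox6c and Cox6a1) and 1 fell (Sdhaf1). The probe set of Cox6a1 on set B carries the suffix too, as do the dimmer called probe sets of Ndufb2 on set A and Sdhaf2 on set C. For those probe sets signal from related sequences cannot be told apart. Probe sets with other suffixes stood for Ndufb2 and Sdhaf2 (_r_) and Atp5j2 (_i_), which passed. The part of these suffixes in the calls was not tested.

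**Figure D4:**
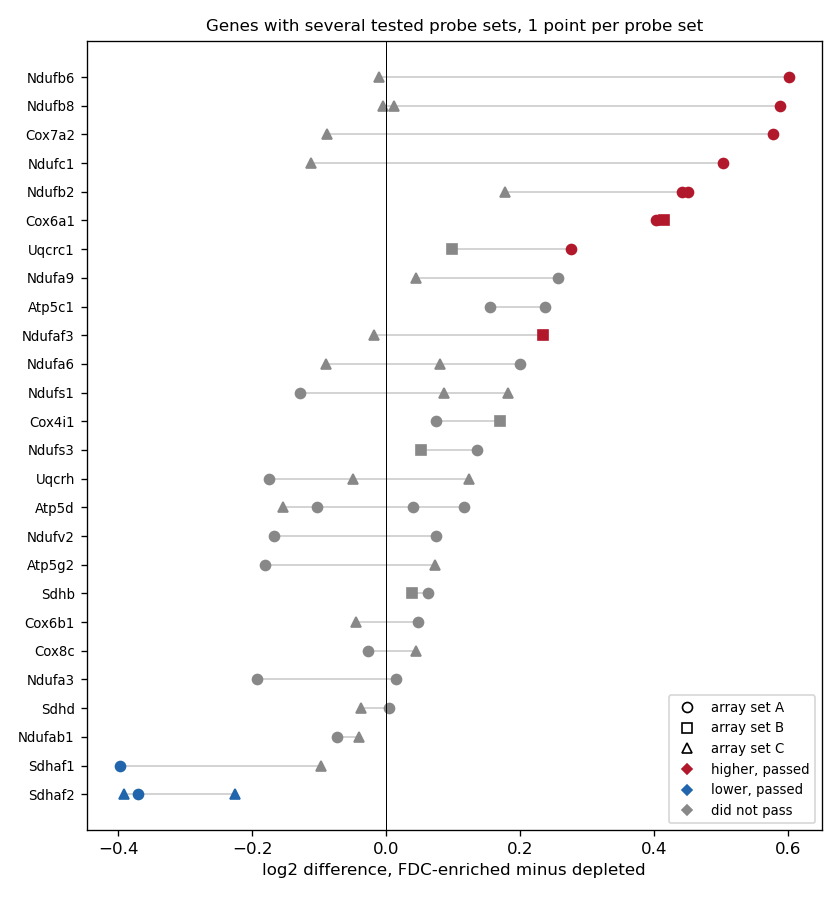
Log2 difference, enriched minus depleted (x axis), of each tested probe set of the 26 genes that had several (y axis). Circles, squares and triangles are array sets A, B and C, red and blue points passed as higher and lower, and grey points did not pass. For Ndufb6, Ndufb8, Ndufc1 and Cox7a2 a red circle at 0.50 or more stands apart from grey triangles near 0 or below.

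Some calls depended on how the arrays were scaled. Of the 21 genes that passed on the deposited scale, 15 kept their call under both quantile normalization and scaling to the common median. After quantile normalization Ndufa7, Ndufb5, Sdhc and Atp5o no longer passed, and after median scaling Cox6a1 and Cox6c did not either. No call changed direction under either scaling. No alternative combined probe sets across array sets, so the set C probe sets of Ndufb6, Ndufb8 and Cox7a2 did not enter the calls of these genes. The 9 genes whose call held under every alternative and every left-out array were Ndufb6, Ndufb8, Ndufa8, Ndufb2, Ndufb9, Uqcr11, Cox7a2 and Atp5j, which rose, and Atp5j2, which fell and was tested only through its depleted arrays.

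**Figure D5:**
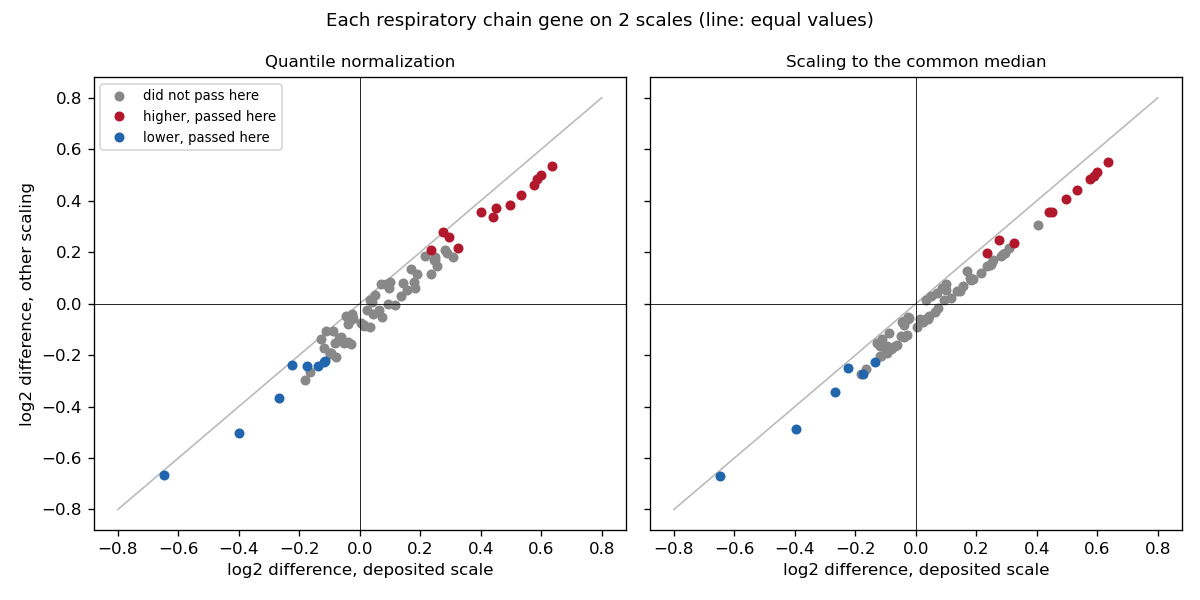
Log2 difference of each of the 76 genes on the deposited scale (x axis) against that after quantile normalization (left) or scaling to the common median (right, y axis). The grey line marks equal values, and colours give the call on the other scale. Most points lie below the line, and after quantile normalization 13 genes passed as higher and 8 as lower. Among all probe sets of set A, 1447 then passed as higher and 2042 as lower.

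Genes that work beside the chain were taken from lists of their own. Of 23 tested assembly factors outside the families above, 0 rose, 3 fell and 20 did not pass, beside 19.2% higher and 14.4% lower among all genes. Lrpprc, which stabilises the messenger RNAs of mitochondrial DNA, went from 574 ± 15.7 (SD, n = 2) to 365 ± 35.6 (SD, n = 3), log2 difference -0.55, SE 0.08, limma adjusted p = 0.00101. Cox17, the copper chaperone of complex IV, went from 1906 ± 42.9 (SD, n = 2) to 1332 ± 265 (SD, n = 3), log2 difference -0.51, SE 0.15, limma adjusted p = 0.0243, and Cox16, another assembly factor of complex IV, from 627 ± 11.5 (SD, n = 2) to 482 ± 43.6 (SD, n = 3), log2 difference -0.33, SE 0.08, limma adjusted p = 0.0134. The calls of Cox17 and Cox16 were lost without depleted array 1 (0.0927 and 0.103) or 2 (0.122 and 0.0762).

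Carriers and porins, which move ADP, ATP, phosphate and other small molecules across the mitochondrial membranes, had 2 rises and 1 fall among 6 tested, a list too small to be read against the shares of all genes. Vdac3, an outer membrane porin, went from 579 ± 18.04 (SD, n = 2) to 1019 ± 23.3 (SD, n = 3), log2 difference 0.73, SE 0.07, limma adjusted p = 7.75e-05. Slc25a4, an exchanger of ADP for ATP, went from 836 ± 5.28 (SD, n = 2) to 1431 ± 88.3 (SD, n = 3), log2 difference 0.71, SE 0.08, limma adjusted p = 0.000177. Slc25a3, the phosphate carrier, went from 189 ± 3.53 (SD, n = 2) to 107 ± 8.22 (SD, n = 3), log2 difference -0.60, SE 0.06, limma adjusted p = 0.000115. Of the 76 respiratory chain genes, 2 (Uqcr11 and Atp5j2) had a difference larger than the smallest of these 3.

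Protein import had 3 rises and 2 falls among 20 tested genes, near the 19.2% and 14.4% of all genes. Hspe1, the small partner of the matrix chaperonin, went from 1881 ± 41.5 (SD, n = 2) to 1325 ± 89.8 (SD, n = 3), log2 difference -0.48, SE 0.08, limma adjusted p = 0.00203. Tomm20, an import receptor of the outer membrane, went from 221 ± 20.7 (SD, n = 2) to 304 ± 3.47 (SD, n = 2), log2 difference 0.35, SE 0.06, limma adjusted p = 0.00189. Pmpcb, a subunit of the peptidase that removes targeting peptides, went from 159.6 ± 14.99 (SD, n = 2) to 216 ± 17.4 (SD, n = 3), log2 difference 0.29, SE 0.08, limma adjusted p = 0.0183. Pmpcb was not past the threshold after quantile normalization (0.0684) or median scaling (0.0507), or without depleted array 2 (0.175). Among electron entry and quinone synthesis genes 1 of 10 rose, Etfa, a subunit of the electron transfer flavoprotein, from 416 ± 3.56 (SD, n = 2) to 533 ± 67.7 (SD, n = 3), log2 difference 0.30, SE 0.10, limma adjusted p = 0.0432. The call of Etfa was lost under 9 alternatives, with adjusted p of 0.0523 to 0.189, the highest without depleted array 2 and 0.166 without depleted array 1. It was 0.0935 without enriched array 2 and 0.127 without enriched array 3. Of 11 genes for mitochondrial DNA upkeep and nuclear regulation, 0 rose and 1 fell, Polg, the mitochondrial DNA polymerase, from 295 ± 25.1 (SD, n = 2) to 224 ± 11.8 (SD, n = 3), log2 difference -0.33, SE 0.06, limma adjusted p = 0.0071. Subunits encoded by mitochondrial DNA were not analysed here.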

How the data were processed

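Total RNA of FDC-enriched and FDC-depleted mouse splenocytes was measured on Affymetrix arrays in 3 sets. The values are linear intensities per probe set as deposited by the authors. The sources used here give neither the summarisation nor the scaling behind these intensities. No column of another sample was present (0). Trimmed means differed by at most a factor of 1.08 between arrays of a set, so the deposited scale was kept.

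Each set was fitted alone with limma 3.58.1 in R 4.3.3 (lmFit, then eBayes with a trend) on log2(intensity + pseudocount). The pseudocount was the 20th percentile of positive values (88.5, 81.2 and 53.1 on sets A, B and C). Testing was limited to probe sets that exceeded the 40th percentile of their array on 2 arrays or more, and 66 control probe sets per set were left out. Benjamini-Hochberg adjustment covered all tested probe sets of a set. The number of arrays limits the precision. Gene symbols came from the platform annotation, updated through Entrez identifiers: 10833, 10581 and 7717 probe sets of sets A, B and C had 1 symbol, 396, 178 and 150 several, and 1193, 1652 and 4001 none. The fit was tested on simulated data.

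The members and lists were chosen with earlier results of these data known, so lists carry counts and medians and no test. A gene was represented by its brightest tested probe set, and over several array sets by the one that ranked highest in level within its set. Genes named with values were the 4 largest rises and falls among passing genes of complexes I, III, IV and V, all of complex II, Cycs, isoform pairs, assembly factors and up to 3 passing genes of each other list. Other genes, such as catalytic subunits and second probe sets, were named after their values were seen. Alternatives were other pseudocounts, scalings, filters, variance priors and adjustments, a replicate block and left-out arrays. The last was the mean over the tested probe sets of a gene within its array set.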

Additional observations from a re-analysis of the deposited data

How the results depend on the processing

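Under alternatives, 697 values were computed for the genes named by rule, the other members that passed and further probe sets that passed. Of these, 604 kept their direction and side of the threshold, and 77 kept the direction and no longer passed. Another 2 newly passed (Atp5g1 and Atp5g2, without enriched array 1) and 14 changed sign. Other genes named here were not counted. Among them Uqcrh and Uqcrc2 passed as lower under both scalings, and Ndufa13 and Atp5pb after quantile normalization. Atp5d, also not counted, went from 0.04 to -0.06 under median scaling. The 14 counted sign changes were all in genes that passed neither on the deposited scale nor under the alternative. Sdhd went to -0.0734 (quantile normalization), -0.0908 (median scaling) and -0.0263 (replicate block) and ranged from -0.0527 to 0.0727 with 1 array left out. Sdhb went to -0.0231 and -0.0313 under the 2 scalings and ranged from -0.0082 to 0.154 with 1 array left out. Over left-out arrays Ndufaf4 ranged from -0.123 to 0.0802, Ndufaf6 from -0.0765 to 0.0249 and Cox6a2 from -0.105 to 0.00404. Whether the enriched arrays were brighter for technical or other reasons was not tested. After quantile normalization, 11 members were lower on set A, the medians of the members were -0.00352, 0.017 and -0.0305 on sets A, B and C, 2 genes of complex I, 2 of complex III and 2 of complex V were lower, 1 of complex V was higher and 0 of complex II. After scaling to the common median, 11 members were higher and 6 lower on set A, the medians were -0.00318, 0.00953 and -0.0316, complex II had 0 higher, complex III 2 lower, complex IV 2 higher and complex V 1 higher. The set A medians changed sign, and either scaling lowers the enriched arrays by construction. Among all probe sets of set A, 1447 were higher and 2042 lower after quantile normalization, and 1461 and 1966 after median scaling. Complex II also had 0 higher genes with the doubled pseudocount, without the filter, with adjustment over the 3 sets together and with the mean over the probe sets of a gene. Adjustment over the 3 sets gave 2 members higher on set C.

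Same-numbered arrays had correlations of deviations of 0.03 and 0.06 on set A, 0.15 on set B (1 shared number) and -0.31 and -0.15 on set C. With 2 depleted arrays the deviations mirror each other, so each value recurs with the opposite sign for the other depleted array. The correlations therefore cannot decide whether the numbers pair samples, and the numbers were not taken to do so. A fit with a replicate block was run for sets A and C. On set A 14 members were higher and 2 lower with a median of 0.10, beside 1624 and 1188 among all probe sets. On set C 0 were higher and 2 lower with a median of -0.02, beside 407 and 458 among all. Number 3 exists only among the enriched arrays, and the member medians equalled those without enriched array 3 on both sets. The block was therefore not a separate check of these medians. No block was fitted on set B, because only 1 number is shared there. Of 72 genes, 12 rose and 2 fell under the replicate block.

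Leaving out 1 array at a time gave 10 to 21 members higher and 0 to 5 lower on set A (median 0.08 to 0.11), 0 to 2 higher and 0 lower on set B (median 0.03 to 0.06), and 1 to 2 higher and 2 to 3 lower on set C (median -0.0257 to 0.0151). By gene these ranges were 5 to 10 higher and 0 to 1 lower in complex I, 0 to 1 higher and 0 lower in complex II, 1 to 3 higher and 0 lower in complex III, 2 to 4 higher and 0 lower in complex IV, and 1 to 4 higher and 1 to 3 lower in complex V. Where this left 1 array in a group, that array was assumed to vary like the others of the set. The counts over all probe sets also moved with the array left out.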
